A study of Mus musculus with 6 samples.

Results

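The Notch pathway was examined through 10 genes, taken from the count lists by their symbols. They are the 4 receptors Notch1, Notch2, Notch3 and Notch4, the 4 ligands Jag1, Jag2, Dll1 and Dll4, and the 2 target genes Hes1 and Hey1. All 10 were among the 24393 listed rows, and all 10 passed the filter on low counts that left 13600 genes for testing. The study asked what HOXA13, a posterior homeobox transcription factor, does to cell identity, and each library was RNA sequenced from differentiated KH2 cells, a mouse embryonic stem cell line made to carry genes that respond to doxycycline. Of the 6 libraries, 3 were CONTROL and 3 were HOXA13, all of the strain labelled C57/BL/6. In the HOXA13 cells a FLAG-tagged human HOXA13 gene had been placed in the inducible locus, and what the CONTROL cells carry there is not given in the sources used here. Both groups are described under the same culture protocol, with Noggin, CHIR, Activin-A and bFGF on a layer of M15 mesoderm-derived feeder cells, doxycycline at 1.25 µg/ml from day 4, sorting of CXCR4+ E-cadherin+ cells on day 6, and a further day with doxycycline before RNA isolation. M15 cells are of mouse origin, so that their RNA cannot be told from that of the differentiated cells by its sequence. The replicates are called biological in the methods, but whether each came from its own clone is not given in the sources used here, and the p-values measure the spread between these libraries.

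Notch receptors are single-pass membrane proteins that are switched on by Jagged or Delta-like ligands on a neighbouring cell. Ligand binding opens the receptor to cleavage by ADAM proteases and then by γ-secretase, and the released intracellular part enters the nucleus, where it joins the DNA-binding protein RBPJ and a Mastermind protein to activate genes such as Hes1 and Hey1. These targets encode basic helix-loop-helix repressors. In the gut the pathway is known for setting the balance between absorptive and secretory cells, and in the embryo for somite formation, arterial identity and the mural cells of vessels.

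The libraries held between 12279884 and 17331638 counts, and 3 counts, taken as the lowest level that the depth can show, were worth 0.176 to 0.240 CPM (counts scaled to TMM-normalised library sizes, counting error only). The row under the human identifier ENSG00000106031, which the files pair with no symbol, was at 0 in each CONTROL library. In HOXA13 replicates 1, 2 and 3 it had 2497, 7666 and 6572 counts, so that replicate 1 was the lowest. Mouse Hoxa13 had from 0 to 10 counts in CONTROL and from 0 to 5 in HOXA13. CONTROL replicate 2 stood apart from its group. Over the tested genes (genes are no replicates), Spearman's rho was 0.908 and 0.931 between it and CONTROL replicates 1 and 3, against 0.977 between those 2, and from 0.951 to 0.961 between it and the HOXA13 libraries. Of the markers of definitive endoderm, the cells that the sort was aimed at, Cer1 had no count in any library, Sox17 was between 0.975 and 4.84 CPM and Foxa2 between 1.76 and 5.04 CPM, and of the sort markers, Cxcr4 was between 2.25 and 11.3 CPM and Cdh1 (E-cadherin) at 192, 1292 and 702 CPM in CONTROL and between 1690 and 1893 CPM in HOXA13. Eomes (24.4 to 111 CPM), Gata4 (13.1 to 31.9 CPM) and Gata6 (5.69 to 35.8 CPM), which mesoderm also expresses, were higher. Values without CONTROL replicate 2 are therefore given beside the main results that rest on it.

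None of the 10 genes passed the threshold between HOXA13 and CONTROL. In edgeR's quasi-likelihood test with adjustment over all 13600 genes (Benjamini-Hochberg, threshold 0.05), 0 of 10 were called, where 0.309% of all genes were (0.265% with higher and 0.0441% with lower HOXA13 values), and 2 of 10 (Notch1 and Jag1) had an unadjusted p under 0.05, where 14.1% of all genes did. The median log2 fold change of the 10 was -0.09, against -0.01 over all genes tested, with 4 values above and 6 below 0, where 48.8% of all genes were above 0. The groups did not overlap for 2 of the 10, Notch1 with higher and Jag1 with lower HOXA13 values, which is near the background of 20.0% of all genes (11.5% higher and 8.52% lower). With DESeq2, the tool of the study, 1 of 10 was called (Jag1, background 5.05%), and with limma voom and sample weights 3 of 10 were called (Notch1, Jag1 and Dll1, background 15.4%). Without CONTROL replicate 2, edgeR called 2 of 10 (Jag1 and Dll1) over a background of 14.2%, and 5 of 10 did not overlap over a background of 48.7%.

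**Figure D1:**
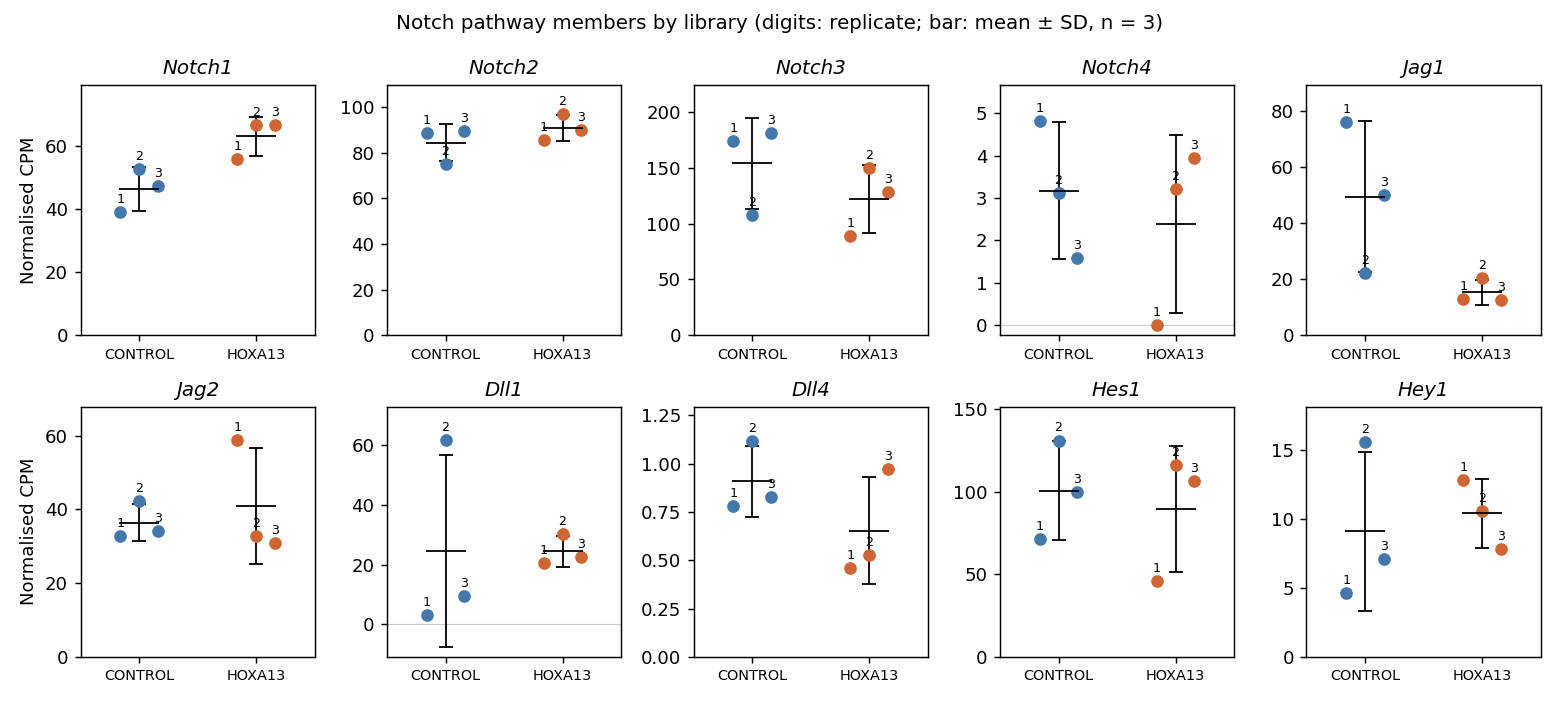
Normalised CPM of the 10 Notch genes in each library, on a linear axis per gene. Points are libraries with their replicate number, and the horizontal bar and whiskers are the mean and SD of 3 libraries. Jag1 is at 22.2 CPM or more in CONTROL and at 20.3 CPM or less in HOXA13, and Dll1 ranges from 3.12 to 61.6 CPM within CONTROL.

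The receptors were compared first. Notch1 (mm9, chromosome 2, 26313423 to 26372183, minus strand), a receptor used in many embryonic tissues, was at 39.0, 52.8 and 47.3 CPM in CONTROL replicates 1, 2 and 3 and at 56.0, 66.7 and 66.8 CPM in HOXA13 replicates 1, 2 and 3. All 3 HOXA13 values lay above the highest CONTROL value, that of replicate 2. The CONTROL mean was 46.3 ± 6.93 CPM and the HOXA13 mean 63.2 ± 6.19 CPM (SD, n = 3). The log2 fold change was 0.45 (SE 0.19, 95% interval 0.00 to 0.89) with an edgeR adjusted p of 0.351. The value was 0.54 with limma voom (adjusted p 0.0417) and 0.54 without CONTROL replicate 2 (edgeR adjusted p 0.093), and over all fits without 1 library it ranged from 0.32, without CONTROL replicate 1 (edgeR adjusted p 0.748), to 0.54.

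Notch2 (chromosome 3, 97817461 to 97954290, plus strand) had the narrowest spread of log2 CPM of the 4 receptors (SD 0.14 in CONTROL and 0.09 in HOXA13). It was at 88.8, 75 and 89.4 CPM in CONTROL and at 85.8, 97.0 and 90.0 CPM in HOXA13, and the groups overlapped. The log2 fold change was 0.11 (SE 0.16, edgeR adjusted p 0.824), and its 95% interval, from -0.25 to 0.47, bounds the size of a difference in either direction.

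Notch3 (chromosome 17, 32257765 to 32303825, minus strand), the receptor best known from vascular smooth muscle and pericytes, was at 175, 107 and 181 CPM in CONTROL and at 89.2, 150 and 128 CPM in HOXA13. CONTROL replicates 1 and 3 were the highest of the 6 libraries and HOXA13 replicate 1 the lowest, with CONTROL replicate 2 next to it. The log2 fold change was -0.34 (SE 0.26, edgeR adjusted p 0.642), and without CONTROL replicate 2 it was -0.55 (edgeR adjusted p 0.12), with groups that no longer overlapped, but without HOXA13 replicate 1 it was -0.16 (edgeR adjusted p 0.885). Notch4 (chromosome 17, 34701213 to 34725448, plus strand), an endothelial receptor, was low, with 68, 39 and 21 counts in CONTROL and 0, 55 and 65 counts in HOXA13. In CPM this was 4.82, 3.12 and 1.58 for CONTROL against 0, 3.22 and 3.94 for HOXA13, and the 0 of HOXA13 replicate 1 allows up to 0.231 CPM. The groups overlapped, and the 95% interval of the log2 fold change of -0.40 ran from -3.26 to 2.45 (edgeR adjusted p 0.928), so that a large difference in either direction lies within the spread of these libraries.

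Levels of different genes were compared per length, as CPM per kb of annotated exon. The order Notch3, Notch2, Notch1, Notch4 was the same in 6 of 6 libraries, and it was also the same with the length of the longest transcript in place of all exons. In CONTROL the levels were 19.2 ± 5.07, 8.03 ± 0.775, 3.26 ± 0.487 and 0.394 ± 0.202 CPM per kb (SD, n = 3) in that order, so that neighbours in the order were apart by more than their SDs. In HOXA13 they were 15.2 ± 3.81, 8.65 ± 0.537, 4.44 ± 0.435 and 0.296 ± 0.260 CPM per kb. Notch3 came nearest to Notch2 in HOXA13 replicate 1, at 11.1 against 8.16 CPM per kb.

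The share of Notch1 in the summed level of the 4 receptors was 8.19, 15.1 and 9.61% in CONTROL and 17, 14.2 and 15.8% in HOXA13. CONTROL replicate 2 lay among the HOXA13 libraries. The HOXA13 minus CONTROL difference was 4.71 percentage points (exact two-sided permutation test over libraries, p = 0.2, where 3 against 3 cannot go below 0.1), and without CONTROL replicate 2 it was 6.78 percentage points (exact permutation p = 0.1, the smallest possible).

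**Figure D2:**
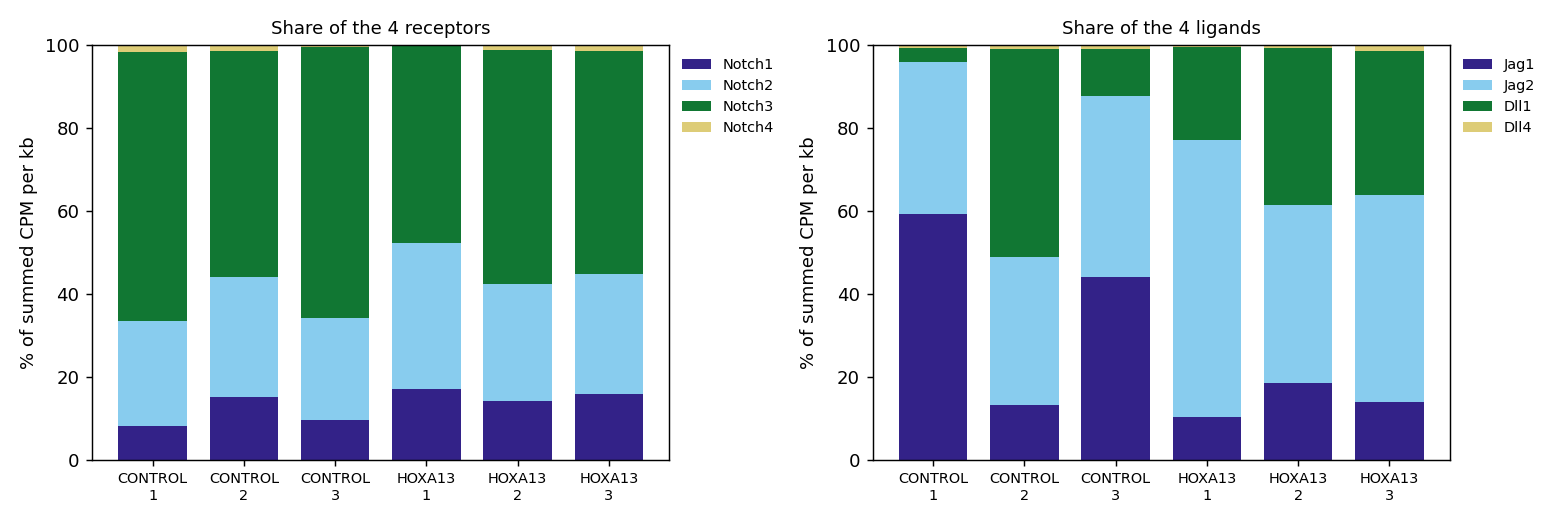
Share of each gene in the summed CPM per kb of the 4 receptors (left) and of the 4 ligands (right), in percent, 1 bar per library. Notch3 holds 47.8% or more of the receptors in every library, while Jag1 holds 59.2% of the ligands in CONTROL replicate 1 and 10.3% in HOXA13 replicate 1.

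Among the ligands, Jag1 and Dll1 had the widest spread within CONTROL, with SDs of log2 CPM of 0.90 and 2.15 against 0.20 for Jag2 and 0.24 for Dll4, and the part of each promoter that lies outside the annotated gene is shown for that reason. The sequences are the RefSeq windows of the GRCm38.p6 table, cut to the bases before the start site and placed in mm9 by a single exact match, and 8 of the 10 genes had such a window. Capitals mark CACGCG, a hexamer bound by Hes and Hey proteins, searched on both strands (its reverse complement is CGCGTG, and its letters match no other motif searched).
Jag1, chr2:136942381-136942506, minus strand: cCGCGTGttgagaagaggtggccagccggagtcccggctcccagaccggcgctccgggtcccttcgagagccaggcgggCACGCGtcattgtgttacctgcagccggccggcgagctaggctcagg
Dll1, chr17:15513897-15514146, minus strand: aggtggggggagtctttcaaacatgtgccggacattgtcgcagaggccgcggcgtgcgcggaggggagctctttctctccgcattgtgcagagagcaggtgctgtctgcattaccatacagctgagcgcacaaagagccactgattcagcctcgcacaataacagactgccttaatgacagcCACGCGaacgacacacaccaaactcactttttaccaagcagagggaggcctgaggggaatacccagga
The hexamer began 249 and 171 bases before the RefSeq start of Jag1 and 68 bases before the upstream one of the 2 starts of Dll1. It was found in 4 of the 9 windows of the 8 genes (Jag1, Dll1, Dll4 and Notch2), against 7.62% of all 32851 windows of 250 bases and 16% of the windows with at least 55% G and C. The core TGGGAA of RBPJ sites, present in 21.6% of all windows, and CAATAAA, a motif of HOX13 proteins present in 4.2%, were in none of the 9. In windows with at least 55% G and C, as all 9 are, these were present in 18.9% and 1.19%. Of the other motifs of Hes and Hey proteins, the E box CACGTG (6.02% of all and 8.67% of such windows) was in none and the N box CACNAG (36.7% and 35.2%) in 4. These matches describe the letters of the windows and not binding.

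Jag1 (chromosome 2, 136907192 to 136942380, minus strand) was at 76.3, 22.2 and 50.0 CPM in CONTROL and at 13.1, 20.3 and 12.5 CPM in HOXA13. Every CONTROL value lay above every HOXA13 value, with CONTROL replicate 2 and HOXA13 replicate 2 next to each other. The CONTROL mean was 49.5 ± 27.1 CPM and the HOXA13 mean 15.3 ± 4.37 CPM (SD, n = 3). Its log2 fold change was -1.69 (SE 0.44, 95% interval -2.71 to -0.68), and the edgeR p was 0.0048 before and 0.149 after adjustment. DESeq2 gave -1.71 (adjusted p 0.0048), limma voom gave -1.82 (adjusted p 0.0053), and edgeR without CONTROL replicate 2 gave -2.06 (adjusted p 0.00329). Without CONTROL replicate 1, edgeR gave -1.26 (adjusted p 0.391). The sign was the same in 14 of 14 alternatives, of which 3 passed the threshold, and adjusted p-values ranged from 0.00329 to 0.547.

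Dll1 (chromosome 17, 15504318 to 15513836, minus strand), the Delta-like ligand of the presomitic mesoderm and of neural and gut progenitors, had the widest spread of log2 CPM of the 10 genes in CONTROL (SD 2.15). It was at 3.12, 61.6 and 9.30 CPM in CONTROL, from 44, 770 and 124 counts, and at 20.6, 30.2 and 22.4 CPM in HOXA13. The HOXA13 values lay together, above CONTROL replicates 1 and 3 and below CONTROL replicate 2. The means were 24.7 ± 32.1 and 24.4 ± 5.11 CPM (SD, n = 3), and the log2 fold change was -0.01 (SE 0.88, edgeR adjusted p 0.997). Without CONTROL replicate 2 it was 1.96 (edgeR adjusted p 0.0248), and with limma voom, which gives each library a weight, it was 1.69 (adjusted p 0.0431). The sign of this value near 0 also turned with all libraries kept in the fit with replicate number as a block (0.98, edgeR adjusted p 0.728). Dll1 shares 867 exon bases with the opposite-strand A930024N18Rik, and Notch1 shares 1068 with 0610009E02Rik, Notch3 488 with Gm17276 and Dll4 214 with Gm14207, so that their reads could mix if strand was not used in counting.

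Jag2 (chromosome 12, 114146801 to 114167706, minus strand) was at 32.8, 42.3 and 34.3 CPM in CONTROL and at 58.9, 32.8 and 31.0 CPM in HOXA13. HOXA13 replicate 1 was the highest and HOXA13 replicate 3 the lowest of all 6. The log2 fold change of 0.17 (SE 0.29, edgeR adjusted p 0.856) turned to -0.21 without HOXA13 replicate 1. Dll4 (chromosome 2, 119151520 to 119161698, plus strand), the arterial Delta-like ligand, had only 11, 14 and 11 counts in CONTROL and 6, 9 and 16 in HOXA13, and the 95% interval of its log2 fold change of -0.47 ran from -2.65 to 1.71.

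Per length, the order of the ligands was not the same in all libraries. Jag1, Jag2, Dll1, Dll4 was the order in CONTROL replicates 1 and 3, and Dll1, Jag2, Jag1, Dll4 the order in CONTROL replicate 2. In all 3 HOXA13 libraries it was Jag2, Dll1, Jag1, Dll4, though with the longest transcript as the length Dll1 came before Jag2 in HOXA13 replicate 2. Jag1 and Jag2 in CONTROL, at 8.50 ± 4.64 and 8.99 ± 1.26 CPM per kb, did not differ beyond their spread. In HOXA13, Jag2 at 10.1 ± 3.86 and Dll1 at 5.79 ± 1.21 CPM per kb (SD, n = 3) also lay within it, whereas Dll1 and Jag1 at 2.63 ± 0.750 did not. The joint share of Jag1 and Jag2 among the 4 ligands was 95.7, 48.9 and 87.6% in CONTROL and 77.0, 61.3 and 63.7% in HOXA13, and the difference was -10.0 percentage points (exact two-sided permutation test over libraries, p = 0.6). CONTROL replicate 2 held the lowest share of the 6, and without it the difference was -24.3 percentage points (exact permutation p = 0.1, the smallest that 2 against 3 can give). The difference was -0.873 percentage points without CONTROL replicate 1 and -4.96 without CONTROL replicate 3. Without 1 HOXA13 library it was between -14.9 and -7.02 percentage points.

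The target genes gave no called difference. Hes1 (chromosome 16, 30064470 to 30067882, plus strand), the main Notch target in gut progenitors, was at 71.4, 131 and 99.8 CPM in CONTROL and at 45.8, 116 and 106 CPM in HOXA13. The lowest value was that of HOXA13 replicate 1 and the highest that of CONTROL replicate 2, so that both groups spanned most of the range. For Hes1 the log2 fold change was -0.17 (SE 0.36, 95% interval -1.0 to 0.67, edgeR adjusted p 0.885), and it was 0.13 without HOXA13 replicate 1 and 0.05 without CONTROL replicate 2.

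Hey1 (chromosome 3, 8663362 to 8667039, minus strand), a target known from vessels and mesenchyme, was at 4.61, 15.6 and 7.13 CPM in CONTROL and at 12.8, 10.6 and 7.82 CPM in HOXA13. As for Dll1, CONTROL replicate 2 lay above and the other CONTROL libraries below every HOXA13 value. The log2 fold change was 0.19 (SE 0.49, edgeR adjusted p 0.907), and 0.81 without CONTROL replicate 2 (edgeR adjusted p 0.237). Its sign turned without CONTROL replicate 1 (-0.15, edgeR adjusted p 0.978). Per length, Hes1 was at 49.4 ± 14.6 CPM per kb in CONTROL and 43.9 ± 18.7 in HOXA13, and Hey1 at 4.14 ± 2.61 and 4.73 ± 1.14 CPM per kb (SD, n = 3), so that Hes1 was the higher of the 2 in every library.

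**Figure D3:**
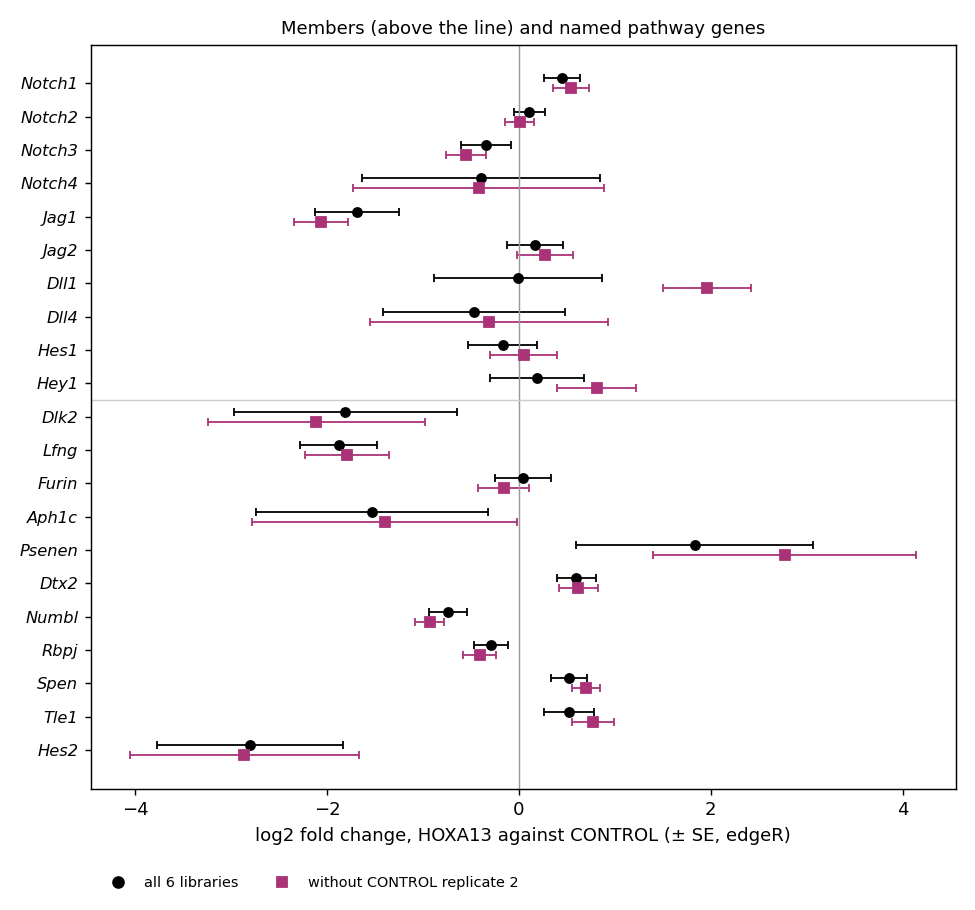
log2 fold change of HOXA13 against CONTROL with its SE in edgeR, for the 10 Notch genes and, under the line, the named genes of the wider pathway. Circles use all 6 libraries and squares leave out CONTROL replicate 2. Dll1 moves from -0.01 to 1.96 between the settings, while Jag1 stays between -2.06 and -1.69.

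The wider pathway was described through 61 further genes listed by role, of which 54 passed the filter. In edgeR 0 of 54 were called, 8 (3 with higher and 5 with lower HOXA13 values) had an unadjusted p under 0.05, against 14.1% of all genes, and the median log2 fold change was -0.11. The groups did not overlap for 14 of 54 (25.9%), 7 in each direction, against 20.0% of all genes. DESeq2 called 2 of 57 (Lfng and Numbl, both with lower HOXA13 values, background 5.05%), limma voom called 7 of 54 (background 15.4%), and edgeR without CONTROL replicate 2 called 7 of 55 (background 14.2%).

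Among genes that modify the receptors with sugars, Lfng stood out by size. Lfng encodes Lunatic fringe, a glycosyltransferase that changes which ligands a Notch receptor responds to. It was at 13.4, 16.2 and 13.1 CPM in CONTROL and at 5.61, 3.52 and 2.49 CPM in HOXA13, with every CONTROL value above every HOXA13 value. Its log2 fold change was -1.88 (SE 0.40, 95% interval -2.81 to -0.94, unadjusted p 0.00166, edgeR adjusted p 0.102). It was -1.90 with DESeq2 (adjusted p 0.00172), -2.11 with limma voom (adjusted p 0.00509) and -1.79 without CONTROL replicate 2 (edgeR adjusted p 0.0283). The sign of Lfng was the same in 14 of 14 alternatives, of which 3 passed the threshold, and adjusted p-values ranged from 0.00172 to 0.503. The other 3 glycosylation genes tested, Rfng, Pofut1 and Poglut1, had overlapping groups and log2 fold changes between -0.21 and 0.04. Without CONTROL replicate 2 the groups did not overlap for Rfng and Pofut1, nor for 48.7% of all genes.

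Among the receptor-cleaving proteases 5 of 10 had groups that did not overlap, 3 with higher and 2 with lower HOXA13 values, against 20.0% of all genes. With all libraries edgeR called 0 of them. Without CONTROL replicate 2, 8 of 10 did not overlap (background 48.7%). There edgeR called Adam10 (log2 fold change -0.58, adjusted p 0.0435), over a background of 14.2%. Furin, the convertase that cuts the Notch precursor, was at 271, 174 and 280 CPM in CONTROL and at 155, 273 and 318 CPM in HOXA13, with overlapping groups and a log2 fold change of 0.04 (SE 0.29, edgeR adjusted p 0.972). The sign turned to -0.16 without CONTROL replicate 2, to -0.05 without HOXA13 replicate 2 and to -0.19 without HOXA13 replicate 3. No subunit of γ-secretase was called, and both directions occurred among those without overlap. Psenen had a CONTROL mean of 0.886 ± 0.880 CPM and a HOXA13 mean of 3.16 ± 1.42 CPM, from counts of 0, 22 and 12 in CONTROL, and leaving out 1 library moved its log2 fold change of 1.83 between 1.22 and 2.77. Aph1c had means of 2.34 ± 0.406 and 0.797 ± 0.718 CPM (SD, n = 3). Leaving out 1 library moved its log2 fold change of -1.53 (edgeR adjusted p 0.649) between -2.2 and -0.98. Both genes were low, and reads of Aph1c may be shared with its near-identical neighbour Aph1b. Ncstn and Psen2, at log2 fold changes of 0.47 and 0.45 (edgeR adjusted p 0.334 and 0.414), lie on chromosome 1, where the median over 476 genes with at least 16 CPM was 0.54, and their part in that shift was not tested. The medians of the chromosomes that carry the 10 Notch genes were between -0.05 and 0.00.

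Genes of endocytosis and ubiquitination, which control how much ligand and receptor is on the surface, held both directions. Numbl, a relative of the Notch inhibitor Numb, was at 107, 75.8 and 120 CPM in CONTROL and at 59.3, 60.6 and 61.2 CPM in HOXA13, without overlap and with a log2 fold change of -0.74 (SE 0.20, edgeR adjusted p 0.158). It was -0.76 with DESeq2 (adjusted p 0.0368) and -0.93 without CONTROL replicate 2 (edgeR adjusted p 0.00564). Dtx2, a Deltex ubiquitin ligase, was at 43.3, 39.9 and 31.5 CPM in CONTROL and at 58.9, 53.4 and 61.7 CPM in HOXA13, again without overlap, with a log2 fold change of 0.60 (SE 0.20, edgeR adjusted p 0.228, and 0.0251 with limma voom).

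In the nucleus, the levels of the activating complex overlapped between the groups for 9 of 9 genes, where 20.0% of all genes did not overlap, but without CONTROL replicate 2 those of Rbpj, Maml1 and Maml2 no longer did (background 48.7%). Rbpj, which encodes the DNA-binding partner of all 4 receptors, was at 108, 89.4 and 119 CPM in CONTROL and at 99.5, 75.2 and 85.4 CPM in HOXA13, with a log2 fold change of -0.29 (SE 0.18, 95% interval -0.70 to 0.13, edgeR adjusted p 0.546), and -0.41 without CONTROL replicate 2 (edgeR adjusted p 0.143). Of the 9 corepressors, Spen and Tle1 had no overlap (22.2%, against 20.0% of all genes), and without CONTROL replicate 2 it was 6 of 9. Spen, which recruits repressors to Rbpj, was at 75.4, 114 and 82.7 CPM in CONTROL and at 127, 132 and 131 CPM in HOXA13 (log2 fold change 0.52, SE 0.19, edgeR adjusted p 0.270, and 0.0155 without CONTROL replicate 2). Tle1, a Groucho-type partner of Hes proteins, had a CONTROL mean of 22 ± 6.61 CPM and a HOXA13 mean of 31.5 ± 1.57 CPM (SD, n = 3). Its edgeR adjusted p was 0.428, and 0.0478 without CONTROL replicate 2.

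Of the other 8 Hes, Hey and feedback genes only 4 passed the filter, and Hes3 had no count in any library. Hes2 was low, with 22, 28 and 45 counts in CONTROL and 7, 2 and 6 in HOXA13, without overlap. Its log2 fold change was -2.80 (SE 0.97, 95% interval -5.03 to -0.57, edgeR adjusted p 0.251). All its HOXA13 counts were under the filter's minimum count of 10, which only its CONTROL libraries reached. The size of this difference is therefore poorly bounded. Among the other ligands, Dlk2, a Delta-like protein without the receptor-binding domain of the Dll ligands, had a CONTROL mean of 5.07 ± 2.21 CPM and a HOXA13 mean of 1.43 ± 1.29 CPM (SD, n = 3, edgeR adjusted p 0.55), with 0 counts in HOXA13 replicate 1. The proneural genes Atoh1 and Neurod1 were at 5.56 CPM or less in every library and overlapped between the groups.

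**Figure D4:**
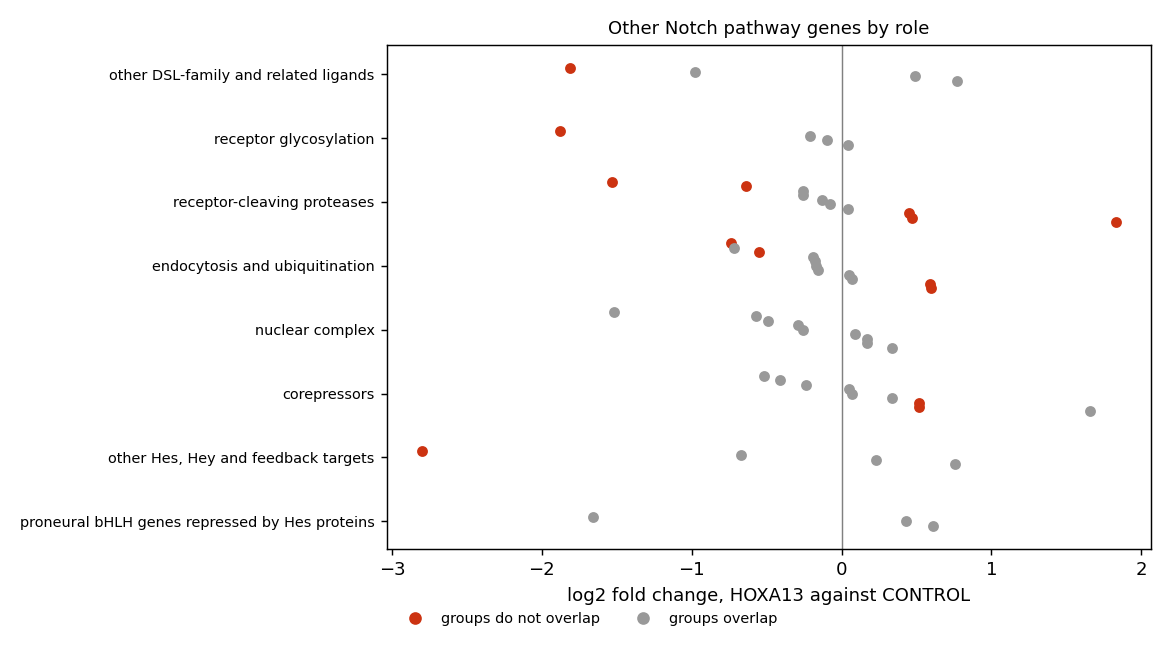
log2 fold change of HOXA13 against CONTROL in edgeR for the 54 tested genes of the wider Notch pathway, in rows by role. Each point is a gene, and the 14 genes whose groups do not overlap are in red. They lie on both sides of 0, with Lfng at -1.88 and Hes2 at -2.80 on the lower side and Psenen at 1.83 on the higher. Hes2 (7, 2 and 6 counts in HOXA13) and Psenen (0, 22 and 12 counts in CONTROL) are low, so that their values are uncertain.

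Over the 6 libraries the pattern of each member was also set beside those of the other members and the pathway list (63 genes, Pearson's r of log2 CPM, a description only, as all points share libraries and depth). Closest to Notch1 was Spen (r = 0.937), closest to Notch3 was Maml1 (r = 0.957), closest to Jag1 was Numbl (r = 0.927), closest to Dll1 was Tle4 (r = 0.94), closest to Hes1 was Adam17 (r = 0.958) and closest to Hey1 was Fbxw7 (r = 0.949). The best matches of the other 4 were lower, with Notch4 and Aph1c at r = 0.912, Notch2 and Neurod1 at 0.889, Dll4 and Atoh1 at 0.865 and Jag2 and Dtx1 at 0.831. Spearman's rho was 0.943 for Notch1, Notch3 and Hey1 with their matches, between 0.771 and 0.829 for Jag1, Jag2, Dll1, Dll4 and Hes1, 0.6 for Notch2 and 0.371 for Notch4, which like Aph1c had 0 counts in HOXA13 replicate 1.

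Markers of other cells differed between the same libraries, and since these are bulk samples, fewer cells of a type and less RNA per cell cannot be told apart. The 12 mesenchymal markers summed to 6232, 648 and 4300 CPM in CONTROL and to 203, 1040 and 641 CPM in HOXA13, and the 8 smooth muscle and pericyte markers to 2844, 174 and 2030 CPM in CONTROL and to 156, 391 and 473 CPM in HOXA13. CONTROL replicates 1 and 3, which were highest in both sums, were also highest in Jag1 and Notch3, and HOXA13 replicate 1 was lowest in both sums and in Notch3. Jag1 did not follow the sums in the other libraries. CONTROL replicate 2 had a lower smooth muscle and pericyte sum than HOXA13 replicates 2 and 3. Its Jag1, at 22.2 CPM, was above theirs, at 20.3 and 12.5 CPM, while its Notch3 was below theirs. The lowest Jag1 was in HOXA13 replicate 3. The log2 fold changes were below 0 for 11 of 12 mesenchymal and 7 of 7 tested smooth muscle markers, with 0 called in edgeR. Most of each smooth muscle and pericyte sum was Tagln, at 2215, 158 and 1772 CPM in CONTROL and between 144 and 443 CPM in HOXA13. Acta2 was at 514, 1.68 and 217 CPM in CONTROL and between 0 and 25.6 CPM in HOXA13. Myh11 was between 0 and 1.72 CPM and Rgs5 between 0 and 1.70 CPM. RNA was isolated a day after the sort for E-cadherin. The part of mesenchymal, smooth muscle and pericyte cells in the values of Jag1 and Notch3 was not tested.

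The 8 pluripotency markers summed to 113, 1254 and 187 CPM in CONTROL and to 630, 416 and 395 CPM in HOXA13. CONTROL replicate 2 held the highest sum and CONTROL replicates 1 and 3 the lowest, as for Dll1. The presomitic marker T was at 0.284, 32.9 and 0.825 CPM in CONTROL and between 2.70 and 10.8 CPM in HOXA13, while Mesp2, the other marker of that list to pass the filter, was at 0.142, 1.92 and 1.95 CPM in CONTROL and between 1.46 and 2.81 CPM in HOXA13. Msgn1 and Ripply2 had no count in any library. The part of these cells in the level of Dll1 was not tested. The 10 epithelial markers summed to 1669, 5649 and 3963 CPM in CONTROL and to between 6739 and 8552 CPM in HOXA13, with log2 fold changes above 0 for 10 of 10. The 8 mesonephric feeder markers summed to between 42.2 and 52.6 CPM in CONTROL and between 31.7 and 44.4 CPM in HOXA13, mostly Sall1, with 6 of 6 tested log2 fold changes below 0 (median -0.84, 0 called), and the 6 neural markers to between 33.9 and 40.1 and between 19.4 and 34.6 CPM. The 10 endothelial markers summed to 149, 97.7 and 170 CPM in CONTROL and to 74.4, 73.8 and 43.7 CPM in HOXA13. Most of each sum was Kdr, which endothelial and early mesodermal cells express, at 125, 66.8 and 137 CPM in the CONTROL libraries against 44.3, 43.6 and 27.9 CPM in HOXA13 (log2 fold change -1.51, edgeR adjusted p 0.0999, no overlap). Flt1 was between 12.7 and 28.4 CPM, Cdh5 between 0 and 1.35 CPM and Emcn without a count, and 0 of 5 tested were called. Their part in the values of the Notch genes was not tested. The 11 definitive endoderm markers summed to between 120 and 192 CPM in CONTROL and between 79.7 and 121 CPM in HOXA13, with 4 of 9 tested log2 fold changes above 0, a median of -0.02 and the lower sum carried mainly by Eomes (-1.32, edgeR adjusted p 0.141).

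**Figure D5:**
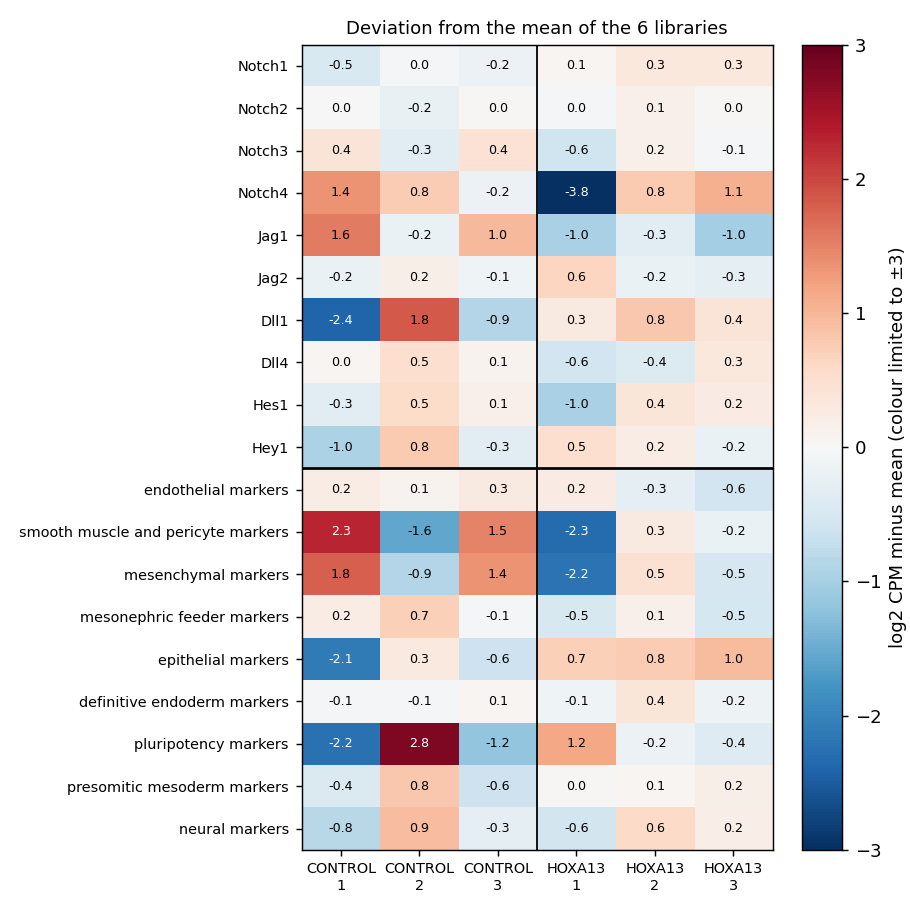
Deviation of log2 CPM (prior count 2) from the mean of the 6 libraries, for the 10 Notch genes and, under the line, as the mean over each marker list. Colour is limited to ±3, which Notch4 passes in HOXA13 replicate 1 (-3.80, from 0 counts). CONTROL replicate 2 is at 2.81 for pluripotency markers, and the mesenchymal markers are at 1.80 and 1.35 in CONTROL replicates 1 and 3 and at -2.22 in HOXA13 replicate 1.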

How the data were processed

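RNA of 3 CONTROL and 3 HOXA13 cultures was compared. The authors deposited unnormalised counts of reads for each gene symbol, made from stranded poly-A libraries with TopHat2 (2.0.14 in the submitters' processing notes) on mm9 and HTSeq. The annotation, strand option and treatment of multiply aligned reads are not given in the sources used here, and Notch1, Notch3, Dll1 and Dll4 share exon bases with opposite-strand noncoding genes. Groups came from the sample titles. Counts were filtered with filterByExpr (minimum count 10, minimum total 15), scaled by TMM and tested in edgeR 4.0.16 (R 4.3.3) with glmQLFit and glmQLFTest on group alone. SEs derive from the F statistic. DESeq2 1.42.0, limma 3.58.1 voom, other scalings and filters, the replicate block and leaving out each library were alternatives. Gene positions and exon lengths are those of GENCODE M1 (mm9). On data simulated for this comparison over 13600 genes, edgeR recovered 12.2% of 98 genes changed 2-fold and 55.9% of 102 changed 4-fold. Of its calls 8% fell on unchanged genes, as did 31.1% of those of DESeq2 and 3.23% of those of limma voom. The simulated libraries were drawn independently, with the spread that edgeR estimated for each gene. None was made to stand apart as CONTROL replicate 2 does, so that these rates may not hold for the real libraries. All 10 members were named, with the gene closest in pattern. Of the pathway list, genes past the threshold, up to 2 per role with the largest change among those at 1 CPM or more without overlap, and Furin and Rbpj were named. Some pathway genes are not reported here by name, and others were named after their values were seen. Members and lists were chosen with earlier results of these data known.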

Additional observations from a re-analysis of the deposited data

How the results depend on the processing

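Against 42 genes called in edgeR over all genes, DESeq2 called 722, limma voom 2101, the edgeR 4 method 106, no filter 163, a mean of at least 50 counts 9 and the replicate block 0, and leaving out each library gave from 0 to 2006. Of the 10 Notch genes (0 called) DESeq2 called 1, limma voom 3 and the fits without 1 library from 0 to 2, and of the wider pathway genes (0 of 54 called) DESeq2 called 2 of 57, limma voom 7 of 54 and the fits without 1 library, which tested 55 to 57, from 0 to 7. Among the fits without 1 library the highest counts came without CONTROL replicate 2, where the called pathway genes included Lfng, Numbl, Spen and Tle1, and where 5 of 10 and 30 of 54 genes did not overlap (48.7% of all genes), against 2 and 14 with all libraries (20.0% of all genes; an alternative chosen after seeing the data). RLE and upper quartile scaling kept the sign of 10 of 10 Notch genes. Signs turned for Dll1 with limma voom (1.69) and the edgeR 4 method (0.01), for Jag2 (-0.02) and Hes1 (0.12) with limma voom, and among the fits without 1 library, whose log2 fold changes ranged from -0.56 to 1.96 for Dll1, from -0.21 to 0.31 for Jag2, from -0.55 to -0.16 for Notch3 (no turn), from -0.98 to 0.16 for Notch4 (0.02 without CONTROL replicate 1), from -0.43 to 0.13 for Hes1, from -0.15 to 0.81 for Hey1 and from -0.19 to 0.28 for Furin. The differences in shares without 1 library ranged from -24.3 to -0.873 percentage points for Jag and from 3.33 to 6.78 for Notch1. With the replicate block Dll1 was at 0.98 (edgeR adjusted p 0.728). Deviations of same-numbered libraries correlated at -0.21, -0.271 and 0.098 across genes, so that no pairing by number was seen. With 3 libraries per group, of which CONTROL replicate 2 stood apart, these correlations cannot exclude a shared origin of same-numbered libraries. The block called 0 of the 10 Notch genes and 0 of the 54 others. What causes these differences was not tested. With 6 to 16 counts per library, depth limits what can be said of Dll4.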
